A study of Mus musculus with 36 samples.

Results

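The genes described here are 33 genes of glycolysis and of the response to low oxygen, picked by symbol from a table of 53299 gene rows. They comprise the transporters Slc2a1, Slc2a3 and Slc2a6, the enzymes of the glycolytic pathway from Hk1, Hk2 and Hk3 down to Pkm, the genes that settle the fate of pyruvate (Ldha, Ldhb, Slc16a1, Slc16a3, Pdk1 and Pdk3), and the oxygen-response genes Hif1a, Egln1, Egln3, Vegfa, Bnip3 and P4ha1. Of the 33 genes, 32 passed the filter on low counts, as did 12463 genes in all, and Vegfa did not. RNA was measured in mouse dendritic cells derived from bone marrow and labelled as FLT3L cDC1 or FLT3L cDC2, the 2 main classes of conventional dendritic cell. FLT3L stands for the growth factor Flt3 ligand. Each class was left without stimulus (Nothing, called untreated below) or received lipopolysaccharide (LPS), a bacterial membrane component sensed by a Toll-like receptor, the oxidized phospholipid PGPC, or LPS together with PGPC (LPS_PGPC). Each group had 3 libraries (replicates 1, 2 and 3 for cDC1, replicates 4, 5 and 6 for cDC2) except cDC2 with PGPC, where replicate 6 held 3799 counts and was left out, so that 2 remained. Values are always listed in that order. The 12 libraries of the alum groups were not used. No genetic change is named for any group. The labels state no strain, age, dose or time and do not say how the classes were separated. They call the replicates biological but name no animal or culture, so that p-values measure the spread between these libraries.

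Glycolysis splits glucose into pyruvate in the cytosol and yields ATP without oxygen. Its flux is set mainly by glucose uptake, by the hexokinases, by phosphofructokinase with its activator fructose bisphosphate made by PFKFB enzymes, and by pyruvate kinase, while lactate dehydrogenase and the pyruvate dehydrogenase kinases steer pyruvate away from the mitochondria. The hypoxia-inducible factor HIF-1α, which prolyl hydroxylases mark for destruction when oxygen is present, switches on many of these genes, and dendritic cells stimulated through Toll-like receptors are known to raise glycolysis early.

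The 23 libraries held 243861 (untreated cDC2 replicate 6) to 16600980 counts, and 29 to 33 of the 33 genes had a count in each. Levels are given as CPM, the count relative to the scaled library total. A set of 6 genes known to respond to LPS (Tnf, Il1b, Il12b, Cd86, Cd40 and Ccr7) summed to 46.2 to 305 CPM in libraries without LPS and to 1821 to 6122 CPM with it. Ribosomal RNA rows took 7.7% to 71.9% of the counts. Their share was 71.9%, 40.7% and 47% in untreated cDC1 and 13.9%, 25.7% and 25.9% in cDC1 with LPS. In cDC2 it was 28.6%, 31.5% and 37.3% untreated, 21.3%, 26.4% and 22.1% with LPS, and 52% and 60.9% with PGPC. Between these groups of a class, treatment and this share cannot be told apart. In cDC1 with PGPC the share was 14.1%, 33.4% and 35.4%, below every untreated cDC1 library, so the same holds there. Every untreated cDC1 library had a higher share than every untreated cDC2 library, and with PGPC every cDC1 library had a lower one. In those comparisons class and this share cannot be told apart either. The part of this share in the calls was tested only by leaving ribosomal RNA rows out of the library totals. Of the 8 cDC1 markers, Clec9a averaged 37.0 CPM in untreated cDC1 against 0.619 in untreated cDC2 and Irf8 899 against 79.8. Batf3, Cadm1, Itgae and Naaa were likewise higher in untreated cDC1. Tlr3 went the other way, at 3.02 CPM in untreated cDC1 against 6.33 in untreated cDC2. Xcr1 was low in both, at 0.177 CPM in untreated cDC1 against 0.348 in untreated cDC2. The cDC2 marker Sirpa averaged 1098 CPM in untreated cDC2 against 358 in untreated cDC1, and Itgam 140.2 against 42.9. The other listed cDC2 markers went against the label. Irf4 averaged 24.9 CPM in untreated cDC1 against 2.61 in untreated cDC2, Klf4 5.97 against 1.83, Clec10a 5.93 against 2.29, Cd209a 2.08 against 0.175 and Mgl2 1.48 against 0.265. Of the 6 tested cDC2 markers, 2 were called higher and 1 lower in untreated cDC2. The 8 monocyte or macrophage markers summed to 2137 to 2981 CPM in untreated cDC2 and to 698 to 941 CPM in untreated cDC1. In bulk RNA, fewer cells of a type and less RNA per cell cannot be told apart.

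The sequences upstream of the genes on which the results turn are shown first, because HIF-1 binds DNA at a short core that can be read from them. The 5 genes are Pfkfb3 and Slc2a6, which rose with LPS in both classes, Ldha and Ldhb, which fell in cDC1, and Hk3, which separated cDC2 from cDC1. Each stretch is the 250 bases before a RefSeq transcript start on the gene's own strand (build GRCm38.p6), with capitals marking the cores ACGTG and GCGTG on either strand, so that CACGTG holds a match on both.
Pfkfb3, chr2:11502091-11502340, minus strand: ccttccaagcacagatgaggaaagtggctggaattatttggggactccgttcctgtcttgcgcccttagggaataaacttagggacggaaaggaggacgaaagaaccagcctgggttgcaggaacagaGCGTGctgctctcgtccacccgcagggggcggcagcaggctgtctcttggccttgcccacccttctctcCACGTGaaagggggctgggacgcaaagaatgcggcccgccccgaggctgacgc
Slc2a6, chr2:27027999-27028248, minus strand: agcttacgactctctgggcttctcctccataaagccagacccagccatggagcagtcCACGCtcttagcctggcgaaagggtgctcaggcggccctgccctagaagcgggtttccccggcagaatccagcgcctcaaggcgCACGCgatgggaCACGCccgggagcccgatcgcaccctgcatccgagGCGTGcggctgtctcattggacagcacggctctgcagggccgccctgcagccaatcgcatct
Ldha, chr7:46845554-46845803, plus strand: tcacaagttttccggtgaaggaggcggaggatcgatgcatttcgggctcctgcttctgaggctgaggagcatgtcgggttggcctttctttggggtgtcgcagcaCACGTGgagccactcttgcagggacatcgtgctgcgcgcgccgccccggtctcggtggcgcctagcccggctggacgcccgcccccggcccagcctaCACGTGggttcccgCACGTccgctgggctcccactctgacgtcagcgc
Ldhb, chr6:142507958-142508207, minus strand: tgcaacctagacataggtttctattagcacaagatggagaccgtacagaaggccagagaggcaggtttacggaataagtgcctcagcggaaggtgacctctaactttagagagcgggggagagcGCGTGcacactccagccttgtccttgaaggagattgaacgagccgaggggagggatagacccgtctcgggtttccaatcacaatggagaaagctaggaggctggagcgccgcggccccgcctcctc
Hk3, chr13:55021386-55021635, minus strand: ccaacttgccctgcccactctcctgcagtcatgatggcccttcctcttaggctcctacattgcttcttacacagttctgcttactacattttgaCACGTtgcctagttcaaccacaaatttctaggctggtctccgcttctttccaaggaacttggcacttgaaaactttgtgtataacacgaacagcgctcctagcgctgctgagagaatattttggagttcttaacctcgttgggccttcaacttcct

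The Pfkfb3 window held 3 core matches, Slc2a6 4, Ldha 5, Ldhb 1 and Hk3 1. Pfkfb3 and Ldha each have a second window, with 1 match, and the one with more matches is shown. The Pfkfb3 window lies inside the gene (chr2:11471433-11554077), upstream of an internal start, and overlaps its annotated exons by 11 bases, while the other 4 windows lie outside exons of the genes named. The Ldha window also lies inside its gene (chr7:46841475-46855627), upstream of an internal start. Slc2a6 (chr2:27021363-27027998), Ldhb (chr6:142490249-142507957) and Hk3 (chr13:55005985-55021385) end just before their windows on the minus strand. Pfkfb3 and Slc2a1 overlap antisense genes and Hk3 overlaps Unc5a on the other strand, and the libraries do not mark strand, so reads of such partners cannot be told apart. RefSeq windows were found for 32 of the 33 genes, 46 windows in all, and 37 of these (80.4%) held a core in either form, against 38.6% of 32851 windows over all genes. The windows of the 33 genes were also richer in G and C (median 61%) than all windows (median 52.4%), and the part of base composition in this difference was not tested. The kappa B consensus, the site of the NF-κB factors that act downstream of Toll-like receptors, was matched in 4 of the 46 windows (8.7%) and in 7.25% of all windows. A match is a string of letters and does not show that a factor binds.

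**Figure D1:**
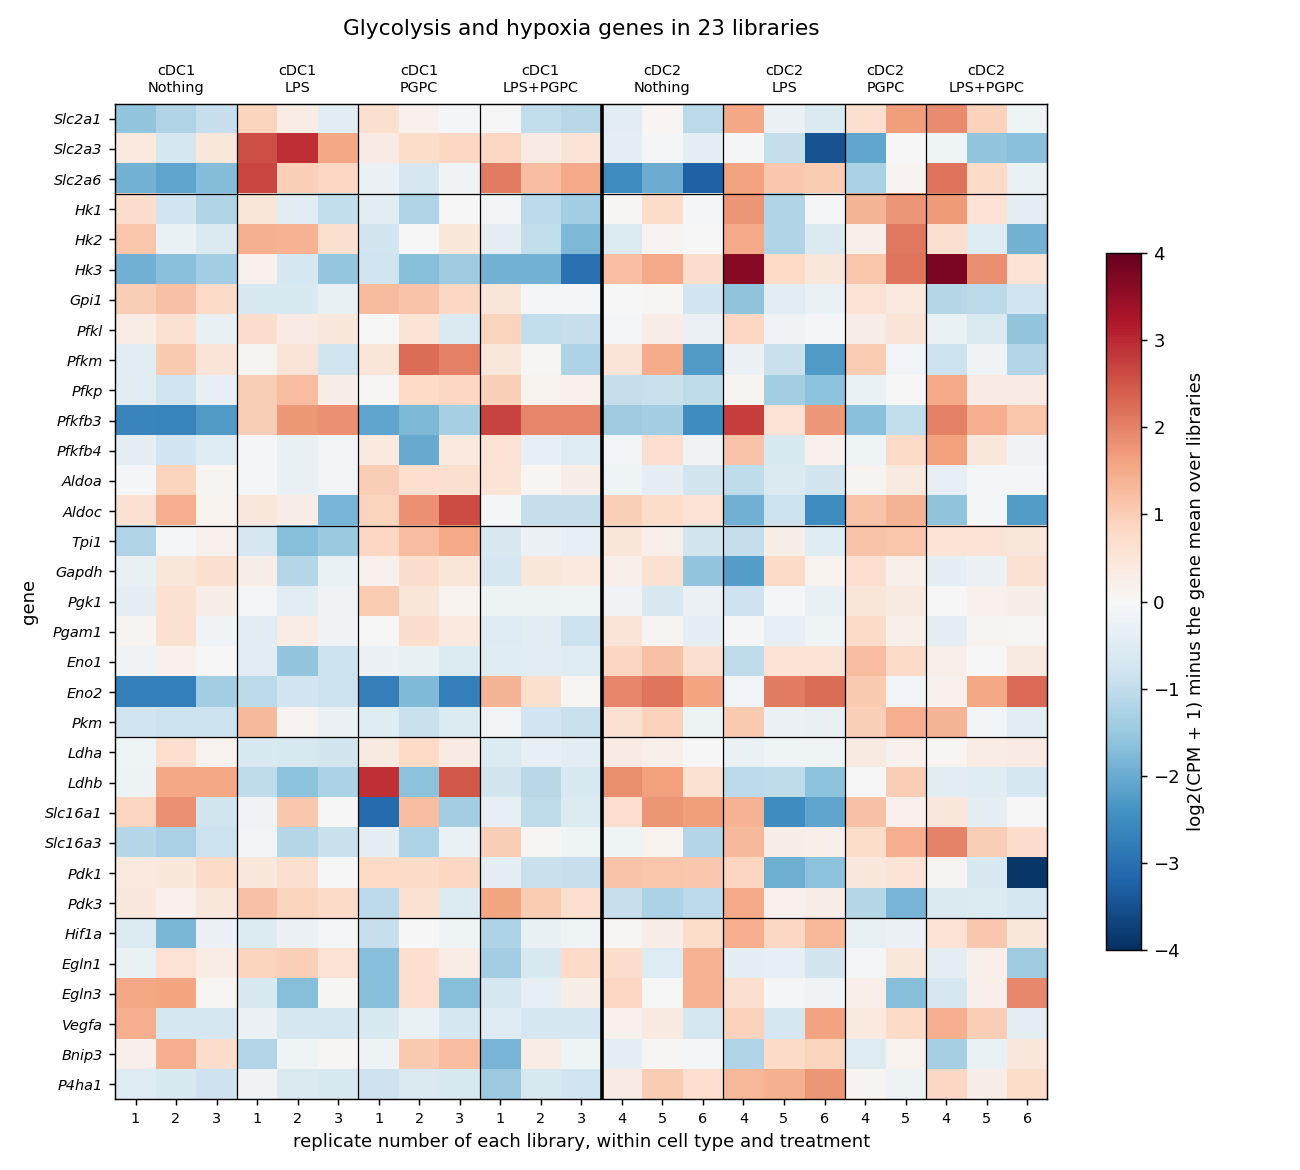
Level of each of the 33 genes (rows, ordered by role) in each of the 23 libraries (columns, labelled by replicate number), drawn as log2(CPM + 1) minus the gene's mean over the libraries, from blue (below the mean) to red (above). Pfkfb3 and Slc2a6 are red in the LPS groups of both classes, and Hk3 and P4ha1 are higher in cDC2 than in cDC1.

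LPS changed 9 of the 32 tested genes in cDC1, 6 upward and 3 downward, against 17.9% of all genes tested (8.58% higher, 9.36% lower). All 3 transporters rose. Pfkfb3, which makes the activator of phosphofructokinase, Pfkp, the platelet-type phosphofructokinase, and Pkm, pyruvate kinase, rose as well. Gpi1, the isomerase after hexokinase, and both lactate dehydrogenase genes, Ldha and Ldhb, fell. The median log2 change over the 32 genes was 0.13, against -0.12 over all genes tested. With LPS, 6 of 8 monocyte or macrophage markers were called lower and 1 higher, and 6 of 13 proliferation genes were called lower. Of the 4 tested granulocyte precursor markers 3 were called lower. Granulocyte precursor markers summed to 33.4, 134 and 59.3 CPM untreated and 6.96, 0 and 5.59 CPM with LPS. Among plasmacytoid cell markers 1 of 5 was lower, and among tested basophil or mast cell markers 1 of 4 was higher. The part of these lists in the changes was not tested.

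Slc2a6, a hexose transporter of intracellular membranes, was at 29.9, 25.4 and 33.5 CPM in the untreated cDC1 libraries and at 731, 219 and 204 CPM with LPS. Every LPS library was above every untreated one, and replicate 1 was the highest. The log2 fold change was 3.70 ± 0.58 (SE; 3 against 3 libraries; adjusted p = 7.95e-05).

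Slc2a3, a high-affinity glucose transporter, was at 13.7, 6.07 and 14.2 CPM untreated and at 66.2, 86.2 and 32.1 CPM with LPS, without overlap (log2 fold change 2.46 ± 0.67, adjusted p = 0.0116). Slc2a1, the widespread basal glucose transporter, was at 12.8, 16.96 and 20.9 CPM untreated and at 75.6, 50.2 and 30.0 CPM with LPS, again without overlap but with an adjusted p close to the threshold (log2 fold change 1.60 ± 0.56, adjusted p = 0.049). The Slc2a3 call was lost without untreated replicate 2 (2.13, adjusted p = 0.0673) or LPS replicate 2 (2.05, adjusted p = 0.0692), and the Slc2a1 call without any of 5 of the 6 libraries, all but LPS replicate 3 (1.21 without LPS replicate 1 to 1.77 without untreated replicate 3). With ribosomal RNA rows left out of the library totals, Slc2a1 had an adjusted p of 0.0508.

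Among the upper enzymes the widest change was in Pfkfb3, at 36.8, 36.1 and 48.3 CPM untreated and 465, 785 and 835 CPM with LPS. The lowest LPS library was far above the highest untreated one. The log2 fold change of 4.10 ± 0.50 had the smallest adjusted p of the 32 genes in any comparison (4.15e-06). Its relative Pfkfb4 was at 19.1 to 25.7 CPM untreated and 26.6 to 31.0 CPM with LPS and did not pass the test. Pfkp was at 51.3, 38.8 and 54.9 CPM untreated and 138, 161 and 82.4 CPM with LPS, without overlap (log2 fold change 1.40 ± 0.44, adjusted p = 0.0303). Pfkl and Pfkm, the liver and muscle types, did not pass the test. Gpi1 was at 669, 763 and 580.0 CPM untreated and 222, 223 and 277 CPM with LPS, all LPS libraries being lower (-1.48 ± 0.35, adjusted p = 0.00426). The 3 hexokinase genes and the aldolase genes Aldoa and Aldoc did not pass the test. The Pfkp call was lost when any library but LPS replicate 3 was left out (1.10 without LPS replicate 2 to 1.496 without untreated replicate 3).

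Of the lower enzymes only Pkm was called. It was at 1144, 1076 and 1083 CPM untreated and 4871, 2107 and 1685 CPM with LPS. The 3 untreated libraries were close to each other and replicate 1 of LPS was more than 2 times the others. The log2 fold change was 1.39 ± 0.48 (adjusted p = 0.046), and without LPS replicate 1 it was 0.78 (adjusted p = 0.326). The call was also lost without any untreated library (1.37 to 1.42) or LPS replicate 2 (1.48). That LPS library also had the highest sums of the monocyte or macrophage markers (921 CPM against 667 and 388) and of the LPS response genes (6122 CPM against 2913 and 2464), and the part of these in the Pkm, Slc2a1 and Slc2a6 values was not tested. Tpi1, Gapdh, Pgk1, Pgam1, Eno1 and Eno2 did not pass the test. Tpi1 was at 21.4, 48.7 and 56.6 CPM untreated and 31.6, 14.8 and 17.4 CPM with LPS, and Eno1 at 1014, 1267 and 1137 CPM untreated and 834, 380.3 and 620 CPM with LPS. Both Eno1 and Tpi1 passed with DESeq2 (Eno1 -0.93, adjusted p = 0.034; Tpi1 -1.01, adjusted p = 0.0472), and Tpi1 also with edgeR without untreated replicate 1 (-1.28, adjusted p = 0.0365) or LPS replicate 1 (-1.41, adjusted p = 0.0482).

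Ldha, the lactate dehydrogenase subunit that favours lactate formation, was at 437, 787 and 543 CPM untreated and 320.1, 317 and 293 CPM with LPS. The LPS libraries lay together below all untreated ones (-0.93 ± 0.30, adjusted p = 0.0303), and the call was lost without untreated replicate 2 (-0.67), LPS replicate 1 (-0.95), LPS replicate 2 (-1.03) or LPS replicate 3 (-0.997), and with no filter on low counts (adjusted p = 0.226). Ldhb, the subunit that favours the reverse reaction, was at 1.71, 8.10 and 8.17 CPM untreated and 0.536, 0 and 0.294 CPM with LPS, from 120 and 7 counts in all (-4.03 ± 1.16, adjusted p = 0.0166). Without LPS replicate 2 or LPS replicate 3 the Ldhb values were -3.84 (adjusted p = 0.0578) and -4.04 (adjusted p = 0.0529). Slc16a1 and Slc16a3, which carry lactate across the plasma membrane, and Pdk1 and Pdk3, which inhibit pyruvate dehydrogenase, did not pass the test.

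No oxygen-response gene was called with LPS in cDC1. Hif1a, which encodes HIF-1α, was at 67.6, 27.3 and 84.0 CPM untreated and 67.9, 83.3 and 95.4 CPM with LPS, with overlap. Bnip3, a mitophagy receptor and classic hypoxia target, was at 18.0, 44.0 and 25.7 CPM untreated and 6.34, 13.6 and 15.9 CPM with LPS (-1.33 ± 0.63, adjusted p = 0.147). The prolyl hydroxylase genes Egln1 and Egln3 stayed below 9 CPM in every cDC1 library, and Vegfa, the angiogenic growth factor, had a count in 1 of 3 untreated and 1 of 3 LPS libraries.

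**Figure D2:**
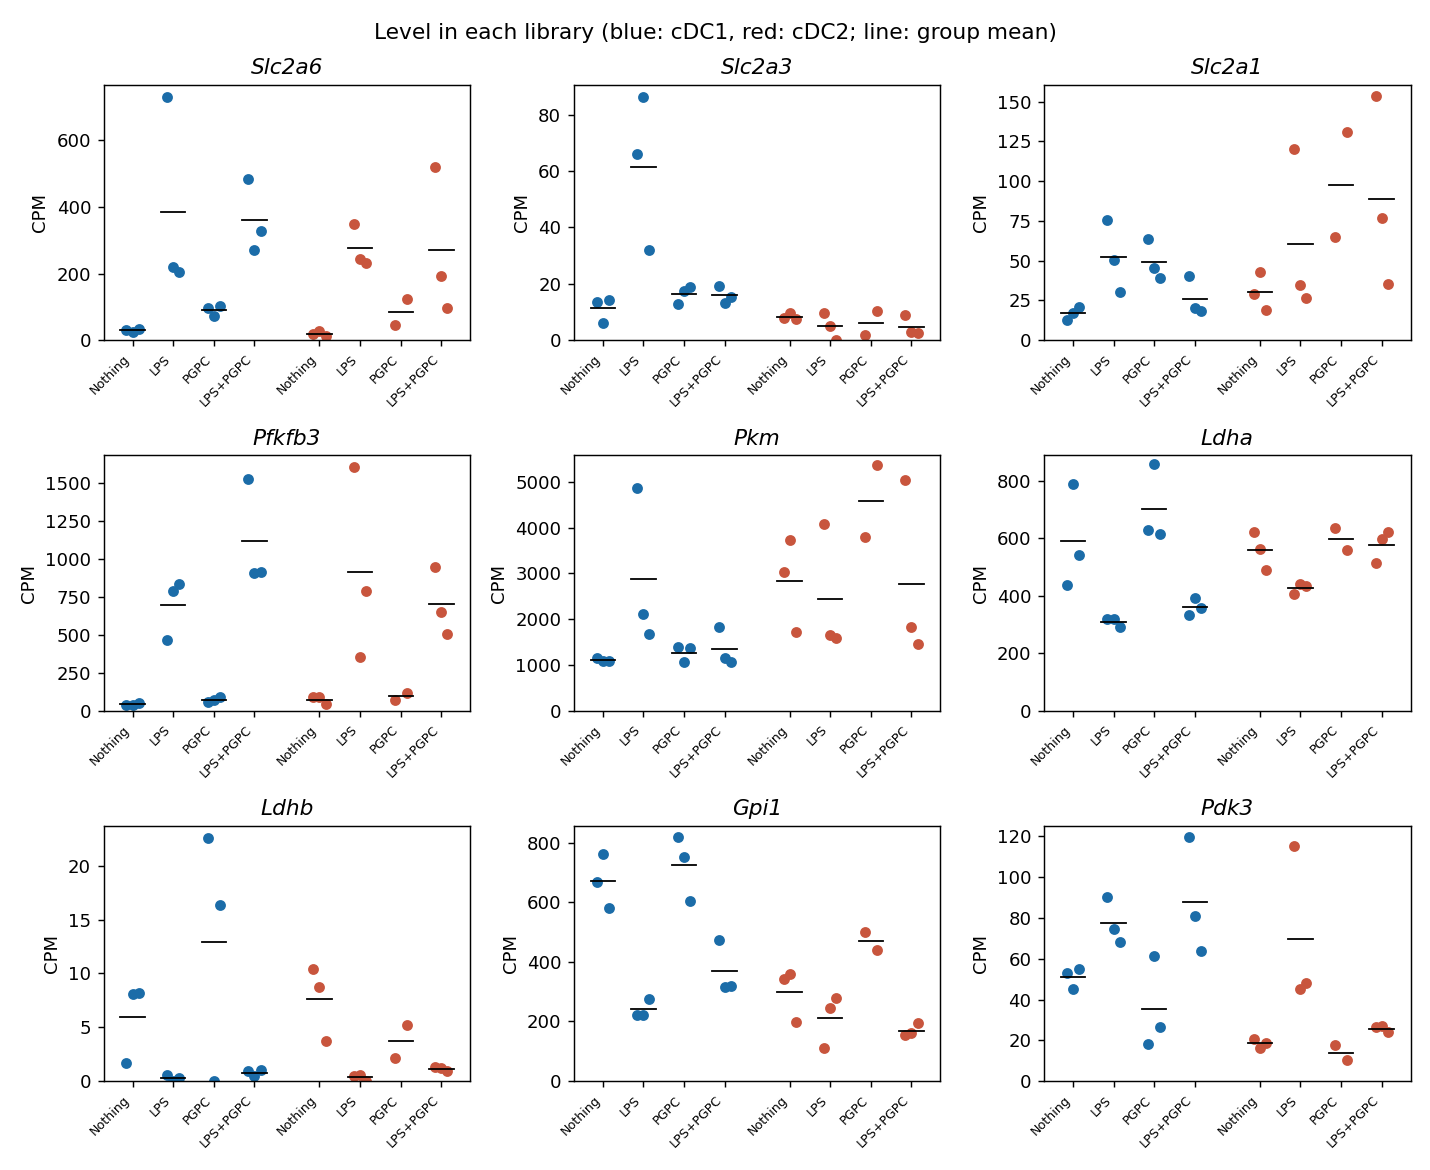
CPM of 9 genes in each library, with cDC1 in blue, cDC2 in red and a line at each group mean; the vertical axis starts at 0. In both classes the LPS libraries of Pfkfb3 (353 to 1600.1 CPM) stand above those without LPS (36.1 to 117 CPM), and the cDC1 LPS libraries of Slc2a3 stand at 32.1 to 86.2 CPM.

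LPS given together with PGPC was compared with PGPC alone, a comparison that shares no library with the one above. In cDC1 9 of the 32 genes were again called (4 higher, 5 lower), against 16.4% of all genes tested (9.79% higher, 6.6% lower). Slc2a6, Pfkfb3, Ldha and Ldhb were called in the same direction in both comparisons, which is 44.4% of the 9 genes of each list, beside 41.3% and 45.2% for the called genes of the whole table. Gpi1, called lower for LPS against untreated, was not called here. It passed with median-ratio scaling (-1.06, adjusted p = 0.03555), with DESeq2 (-1.06, adjusted p = 0.006375) and without LPS_PGPC replicate 1 (-1.15, adjusted p = 0.0446). The median log2 change over the 32 genes was -0.31, against -0.07 over all genes tested.

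Pfkfb3 was at 53.3, 67.1 and 92.1 CPM with PGPC and 1523, 906 and 912 CPM with LPS plus PGPC, far apart in all libraries (3.97 ± 0.49, adjusted p = 7.34e-06). Slc2a6 was at 95.6, 71.0 and 102 CPM with PGPC and 485, 272 and 329 CPM with both agents, without overlap (2.01 ± 0.54, adjusted p = 0.0114). Slc2a1 and Slc2a3 did not pass the test: Slc2a3 was at 13.0, 17.6 and 18.7 CPM with PGPC and 19.1, 13.1 and 15.3 CPM with both. Eno2, the enolase best known from neurons, had 3 counts in all with PGPC and 272 with both agents, at 16.0, 9.32 and 6.09 CPM. The ratio of these pooled counts, scaled to library totals, was 147 (95% counting interval 49.6 to 715), and edgeR gave an adjusted p of 0.00101. The group means lay less far apart, at 0.0692 CPM per kilobase of exon with PGPC and 2.23 with both agents. Enolase in these cells was nonetheless almost all Eno1, which made 97.8% to 99.1% of the enolase signal per kilobase of exon in those libraries. Pdk3 was at 18.3, 61.6 and 26.7 CPM with PGPC and 120, 81.0 and 63.6 CPM with both, PGPC replicate 2 lying close to the lowest library with both (1.33 ± 0.42, adjusted p = 0.0334).

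The genes that fell were spread along the pathway. Tpi1, triose phosphate isomerase, was at 91.5, 122 and 145 CPM with PGPC and 33.1, 42.9 and 40.0 CPM with both agents, without overlap (-1.63 ± 0.41, adjusted p = 0.00718). Pgam1, phosphoglycerate mutase, was at 134, 218 and 175 CPM with PGPC and 92.8, 95.9 and 72.2 CPM with both (-1.01 ± 0.34, adjusted p = 0.0417). Pgam1 has 2 named pseudogenes that took 17.7% of the counts of gene and copies together, so its value is uncertain. Aldoc, a minor aldolase, was at 9.57, 19.2 and 33.8 CPM with PGPC and 4.49, 1.93 and 1.97 CPM with both (-2.90 ± 0.85, adjusted p = 0.0203). Ldha was at 629, 860 and 614 CPM with PGPC and 333, 392 and 358 CPM with both (-0.96 ± 0.29, adjusted p = 0.0274). Ldhb was at 22.6, 0 and 16.3 CPM with PGPC and 0.899, 0.455 and 1.03 CPM with both (-4.01 ± 1.06, adjusted p = 0.0104), and here the groups overlap because PGPC replicate 2 is at 0.

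Several of these calls hung on single libraries. The call was lost for Aldoc without PGPC replicate 3 (-2.36), LPS_PGPC replicate 2 (-2.69) or LPS_PGPC replicate 3 (-2.70), for Pdk3 without PGPC replicate 1 (0.98), PGPC replicate 3 (1.15), LPS_PGPC replicate 1 (1.07) or LPS_PGPC replicate 2 (1.38), and for Ldhb without LPS_PGPC replicate 2 (-3.73, adjusted p = 0.0503). For Ldha it was lost without PGPC replicate 2 (-0.74) or any LPS_PGPC library (-0.86 to -1.02), and for Pgam1 without any library but PGPC replicate 1 (-0.79 without PGPC replicate 2 to -1.09 without LPS_PGPC replicate 2). Pgam1 and Ldha were also lost with no filter on low counts (adjusted p = 0.193 and 0.218). In the same comparison all 4 tested granulocyte precursor markers, all 4 tested basophil or mast cell markers, 6 of 8 monocyte or macrophage markers, 3 of 5 plasmacytoid cell markers and 8 of 13 proliferation genes were called lower with both agents, and their part in these changes was not tested.

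**Figure D3:**
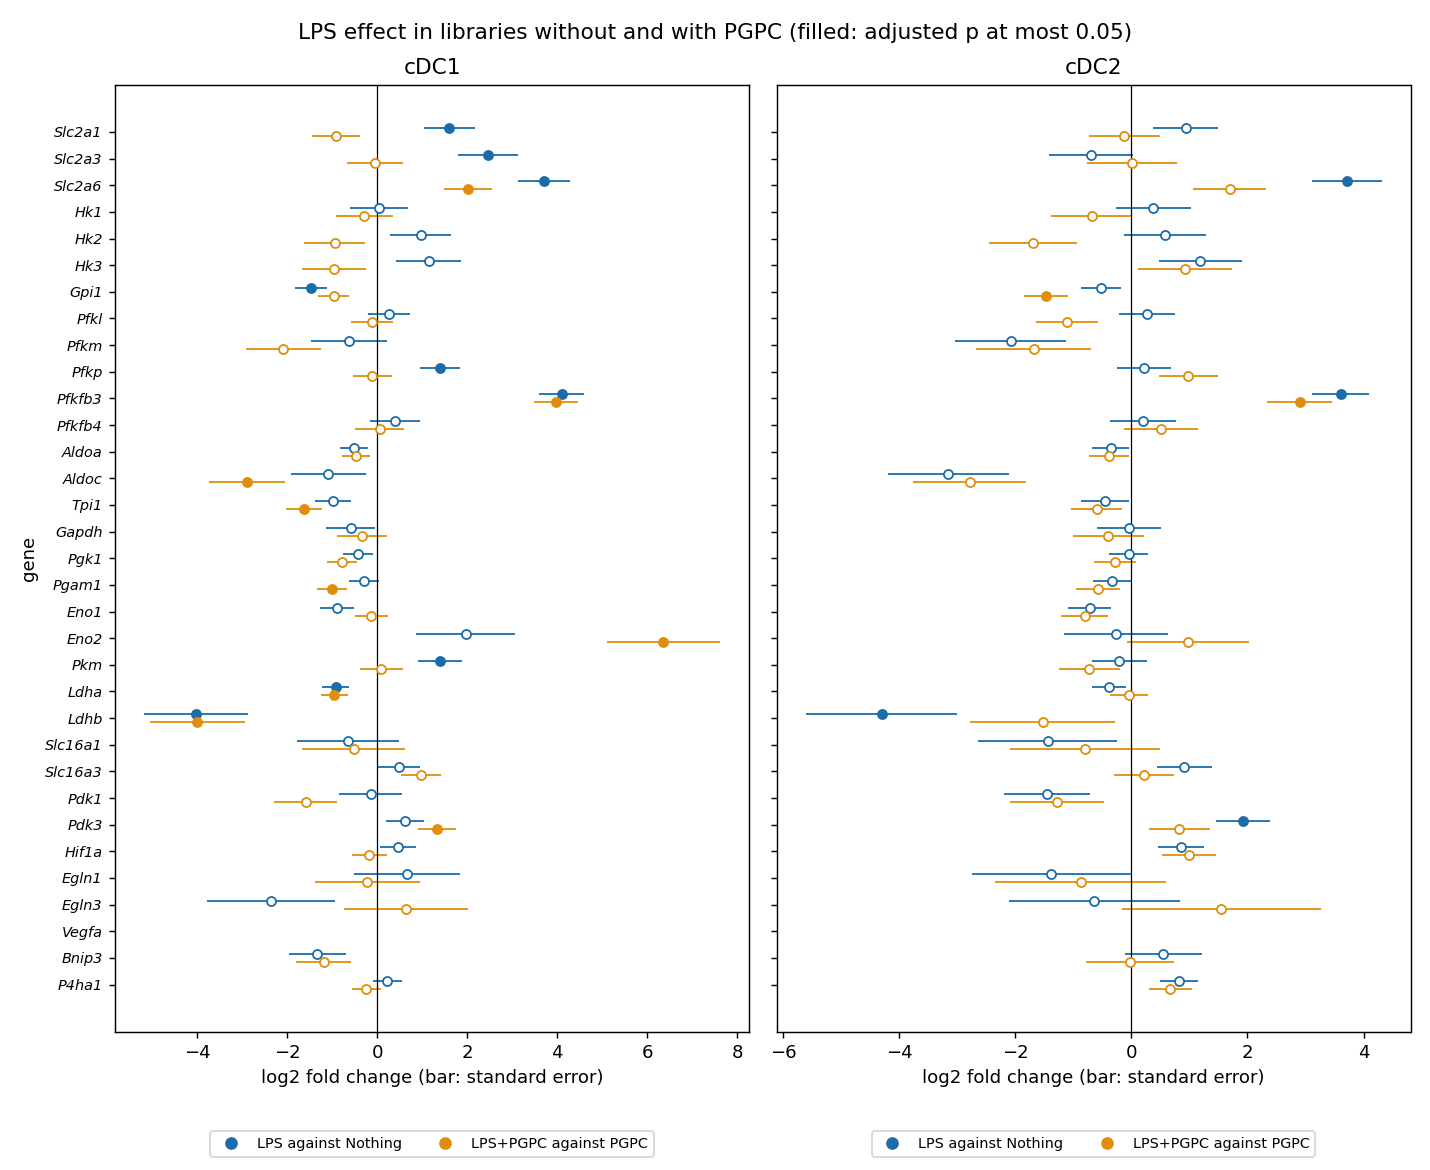
Log2 fold change with its standard error for the 32 tested genes, LPS against untreated (blue) and LPS plus PGPC against PGPC (orange), in cDC1 (left) and cDC2 (right). Filled points passed the adjusted p threshold of 0.05; Pfkfb3 is filled in all 4 comparisons, between 2.90 and 4.10.

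In cDC2 LPS changed 4 of the 32 genes (3 higher, 1 lower), against 8.52% of all genes tested (5.82% higher, 2.7% lower). Slc2a6, Pfkfb3 and Pdk3 rose and Ldhb fell. Slc2a6, Pfkfb3 and Ldhb were also among the 9 genes called in cDC1, which is 75% of the cDC2 list and 33.3% of the cDC1 list, beside 58.7% and 27.9% for the called genes of the whole table.

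Slc2a6 was at 19.0, 27.9 and 11.2 CPM in untreated cDC2 and 350.2, 243 and 233 CPM with LPS, without overlap (3.71 ± 0.60, adjusted p = 0.000168). Pfkfb3 was at 86.3, 90.4 and 41.2 CPM untreated and 1600.1, 353 and 788 CPM with LPS, the lowest LPS library being well above the highest untreated one (3.60 ± 0.49, adjusted p = 2.97e-05). Pdk3 was at 20.6, 16.0 and 18.7 CPM untreated and 115, 45.3 and 47.9 CPM with LPS, without overlap and with LPS replicate 4 highest (1.92 ± 0.46, adjusted p = 0.00713). The Pdk3 call was lost without untreated replicate 5 (1.80, adjusted p = 0.0569) or LPS replicate 4 (1.34, adjusted p = 0.0727).

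Ldhb had 74 counts over the untreated cDC2 libraries and 2 over the LPS libraries. In CPM it was at 10.4, 8.78 and 3.74 untreated and at 0.512, 0.539 and 0 with LPS. The ratio of the pooled counts, scaled to library totals, was 22.7 (95% counting interval 6.07 to 191; adjusted p = 0.0384). The call was lost without any library but untreated replicate 6, with adjusted p from 0.0901 to 0.116. Ldha was at 622, 562 and 490.2 CPM untreated and 408, 440.1 and 435 CPM with LPS and did not pass the test. Nor did Slc2a1, Slc2a3, the hexokinase genes, Pkm or any oxygen-response gene. The oxygen-response gene P4ha1 passed with DESeq2 (0.81, adjusted p = 0.04945). Aldoc passed with DESeq2 (-3.18, adjusted p = 0.03375) and with no filter on low counts (-3.18, adjusted p = 0.02975). Hif1a was at 104, 119 and 165 CPM untreated and 271, 175 and 248 CPM with LPS, without overlap, at a log2 fold change of 0.86 ± 0.40 (adjusted p = 0.238).

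With PGPC present in both arms, 2 of the 32 genes were called in cDC2 (1 higher, 1 lower), against 6.64% of all genes tested (4.43% higher, 2.21% lower). That background of 827 genes fell to 166 without PGPC replicate 4. Pfkfb3 was at 72.3 and 117 CPM with PGPC and 947, 645 and 505 CPM with both agents (2.90 ± 0.56, adjusted p = 0.00207), and Gpi1 at 501 and 441 CPM with PGPC and 154, 160.4 and 194 CPM with both (-1.48 ± 0.38, adjusted p = 0.0178). In neither gene did the groups overlap. The Pfkfb3 call was lost without PGPC replicate 4 (2.60, adjusted p = 0.0884), which leaves 1 PGPC library that is then assumed to vary like the other groups. The Gpi1 call was lost without PGPC replicate 4 (-1.36), PGPC replicate 5 (-1.55), LPS_PGPC replicate 4 (-1.41) or LPS_PGPC replicate 5 (-1.43), and with no filter on low counts (-1.37, adjusted p = 0.0945). Slc2a6 was at 46.0 and 124 CPM with PGPC and 521, 194 and 95.5 CPM with both (1.70 ± 0.63, adjusted p = 0.112), with overlap, and it passed without LPS_PGPC replicate 6 (2.10, adjusted p = 0.0433).

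Within gene families, levels were compared as CPM per kilobase of exon, since longer transcripts give more counts. The length used is that of all annotated exons of a gene merged and can exceed that of the transcripts present. Shares and ranks between genes therefore depend on the annotation. Pfkfb3 made 48.0% to 57.7% of the sum of Pfkfb3 and Pfkfb4 in untreated cDC1 and 90.6% to 95.01% with LPS, and in cDC2 47.0% to 64.6% untreated and 91.4% to 93.3% with LPS. Of the 3 transporters Slc2a6 made 56.8% to 62.7% in untreated cDC1 and 72.2% to 88.1% with LPS, and 35.4% to 39.2% in untreated cDC2 and 75.4% to 90.6% with LPS. No library with LPS fell within the untreated range of either share. Ldhb made at most 3.42% of lactate dehydrogenase in untreated libraries of either class and at most 0.352% with LPS. In cDC1 it made up to 7.04% with PGPC and up to 0.603% with LPS plus PGPC. Among all 33 genes, Aldoa, Pkm and Eno1 had the highest mean level per kilobase in untreated cDC1 (251 ± 96.8, 220.2 ± 7.54 and 212 ± 23.5, SD, n = 3), an order that does not exceed their spread. Pkm and Eno1 led in untreated cDC2 (565 ± 205 and 396 ± 76.7), followed by Ldha (169 ± 19.9) and Aldoa (147 ± 27.8), and of these neighbours only Eno1 and Ldha lay further apart than their SDs.

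**Figure D4:**
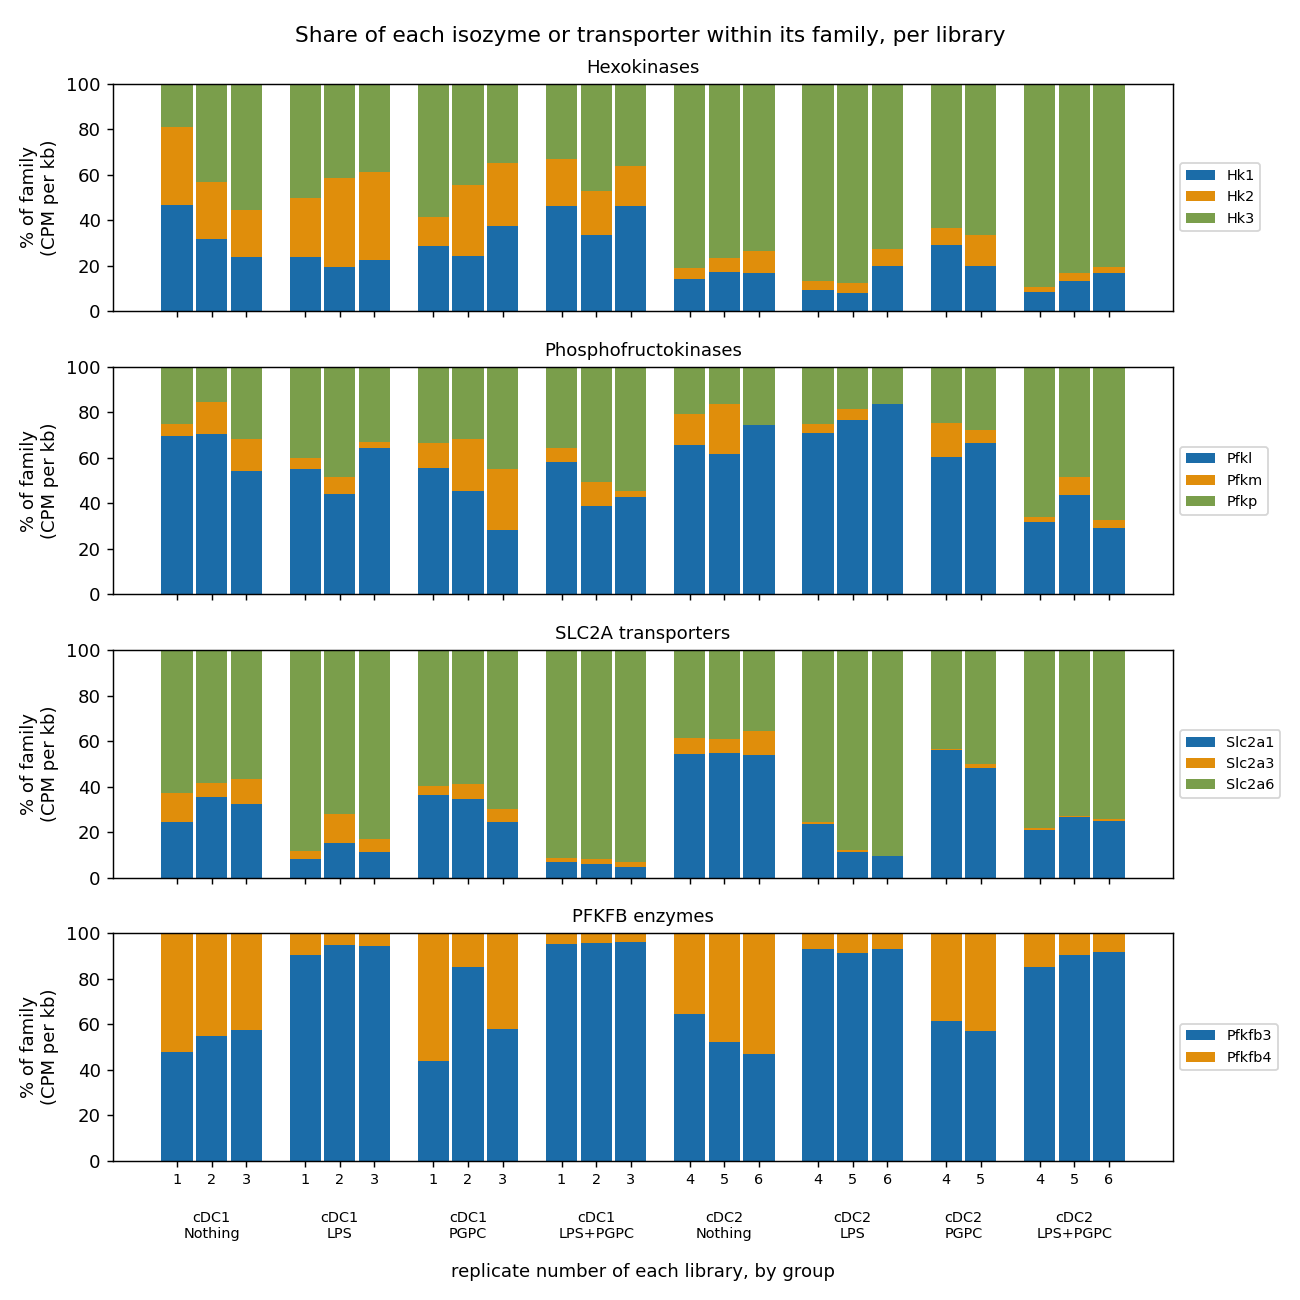
Share of each gene in the summed level per kilobase of its family, as stacked bars for each of the 23 libraries, for hexokinases, phosphofructokinases, SLC2A transporters and PFKFB enzymes. Pfkfb3 makes at least 85.3% of the PFKFB signal in every library with LPS, and Hk3 makes at least 63.5% of the hexokinase signal in every cDC2 library and at most 58.6% in every cDC1 library.

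PGPC alone changed none of the 32 genes by edgeR's quasi-likelihood test in either class, against 2.08% of all genes tested in cDC1 and 0.016% in cDC2. At an unadjusted p under 0.05, for which no share of all genes is given, there were 4 genes in cDC1 and 4 in cDC2. DESeq2 called 2 in cDC1 (Slc2a6 and Tpi1) and 0 in cDC2. Over all genes DESeq2 called 637 in cDC1 and 19 in cDC2, where edgeR called 259 and 2. In cDC1 Tpi1 came nearest, at 21.4, 48.7 and 56.6 CPM untreated and 91.5, 122 and 145 CPM with PGPC, without overlap (1.48 ± 0.41, adjusted p = 0.0548). It passed with median-ratio scaling (1.54, adjusted p = 0.0402) with DESeq2 (1.53, adjusted p = 0.00432) and without PGPC replicate 1 (1.64, adjusted p = 0.0393). Slc2a6 was at 95.6, 71.0 and 102 CPM with PGPC in cDC1, above the 25.4 to 33.5 CPM of untreated libraries (1.60 ± 0.54, adjusted p = 0.12). In cDC2 Slc2a6 was at 46.0 and 124 CPM with PGPC, above the untreated 11.2 to 27.9 CPM, at a log2 fold change of 1.99 ± 0.62 (adjusted p = 0.709). The cDC1 libraries with PGPC also held basophil or mast cell markers at a summed 47.2 to 71.9 CPM, against 0 to 0.25 CPM in untreated ones. Granulocyte precursor markers summed to 345, 153 and 831 CPM with PGPC against 33.4, 134 and 59.3 CPM untreated. The 6 LPS response genes summed to 203.5 to 217.4 CPM in cDC1 with PGPC against 46.2 to 98.2 CPM untreated, and 2 of them were called higher. In cDC2 they summed to 175 and 305 CPM with PGPC against 131 to 196 CPM untreated, with 0 called. The part of any of these lists in these values was not tested.

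Adding PGPC to LPS likewise gave no called gene among the 32 in cDC1, where 1.93% of all genes tested were called, or in cDC2, where 0.385% were. There were 7 genes in cDC1 and 5 in cDC2 at an unadjusted p under 0.05, for which no share of all genes is given. DESeq2 called 2 in cDC1 (Slc2a3 and Hk2) and 3 in cDC2 (Pfkp, Pdk3 and P4ha1). Over all genes DESeq2 called 716 in cDC1 and 190 in cDC2, where edgeR called 241 and 48. In cDC1 Slc2a3 was at 66.2, 86.2 and 32.1 CPM with LPS and 19.1, 13.1 and 15.3 CPM with LPS plus PGPC, without overlap (-1.95 ± 0.64, adjusted p = 0.115). Hk2, the hexokinase induced in activated cells, was at 82.1, 79.1 and 46.8 CPM with LPS and 22.6, 14.7 and 7.96 CPM with both, also without overlap (-2.203 ± 0.69, adjusted p = 0.101). In cDC2 Pfkp was at 74.2, 25.9 and 21.5 CPM with LPS and 198, 86.1 and 86.2 CPM with both (1.59 ± 0.45, adjusted p = 0.148), and Pdk3 at 115, 45.3 and 47.9 CPM with LPS and 26.3, 26.9 and 23.9 CPM with both (-1.44 ± 0.43, adjusted p = 0.191). Without LPS replicate 4 of cDC2, the highest of its group for both genes, Pfkp passed (2.38, adjusted p = 0.0151).

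Differences between effects were tested as interactions, and none of the 32 genes passed in any of the 5 by edgeR. The shares of all genes given here are edgeR's at the adjusted p threshold. Over all genes DESeq2 called 428 for the LPS effect between classes, where edgeR called 166. For the LPS effect with against without PGPC, DESeq2 called 506 in cDC1 and 30 in cDC2, where edgeR called 159 and 4. For the PGPC effect between classes, DESeq2 called 124 without LPS and 53 with LPS, where edgeR called 21 and 1. No share of all genes at an unadjusted p under 0.05 is given, so gene counts at that level have no background beside them. For the LPS effect in cDC2 against that in cDC1, where 1.33% of all genes tested passed, 3 genes had an unadjusted p under 0.05 and DESeq2 called 1, Slc2a3 (edgeR -3.15 ± 0.98, adjusted p = 0.118; DESeq2 adjusted p = 0.0316). Slc2a3 was at 9.73, 4.85 and 0 CPM with LPS in cDC2, at or below its untreated 7.48 to 9.56 CPM in 2 of 3 libraries, while all cDC1 LPS libraries exceeded the untreated ones, and it passed without cDC2 LPS replicate 4 (-4.05, adjusted p = 0.0345). For the LPS effect in cDC1 with PGPC against without, where 1.28% of all genes passed, 6 genes had an unadjusted p under 0.05. These were Slc2a1 (-2.52 ± 0.78, adjusted p = 0.103), Slc2a3 (-2.51 ± 0.90), Slc2a6 (-1.69 ± 0.74), Hk3 (-2.11 ± 1.01), Pfkp (-1.51 ± 0.62) and Eno2 (4.39 ± 1.65), and DESeq2 called Slc2a1 alone (adjusted p = 0.0327). The same test in cDC2 called 0.0321% of all genes at the adjusted threshold. There 2 of the 32 genes had an unadjusted p under 0.05, and DESeq2 called 0. For the PGPC effects compared between classes, 0.168% of all genes were called without LPS and 0.00802% with LPS at the adjusted threshold. At an unadjusted p under 0.05 there were 0 of the 32 genes without LPS and 2 with LPS, and DESeq2 called 0 in both. Pfkp passed in the comparison with LPS when cDC2 LPS replicate 4 was left out (2.79, adjusted p = 0.0386).

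Hk3, the hexokinase typical of myeloid cells, was called higher in cDC2 than in cDC1 under all 4 treatments. Between untreated cells 5 of the 32 genes were called (3 higher and 2 lower in cDC2), against 10.2% of all genes tested (4.01% higher, 6.14% lower). With LPS 5 were called (3 higher, 2 lower), against 7.8% (5.59% higher, 2.21% lower). With PGPC 5 were called, all higher, against 12.1% (6.83% higher, 5.22% lower). With both agents 4 were called (2 higher, 2 lower), against 7.14% (4.6% higher, 2.54% lower). The comparisons at different treatments share no library.

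Hk3 was at 22.2, 26.3 and 32.5 CPM in untreated cDC1 and 201, 247 and 142 CPM in untreated cDC2 (2.86 ± 0.76, adjusted p = 0.0168). With LPS it was at 98.1, 52.6 and 28.8 CPM in cDC1 and 1085, 152 and 118 CPM in cDC2 (2.91 ± 0.75, adjusted p = 0.0154), with PGPC at 49.3, 26.1 and 31.5 CPM against 187 and 384 CPM (2.99 ± 0.80, adjusted p = 0.0162), and with both at 22.5, 22.3 and 10.02 CPM against 1177, 313 and 125 CPM (4.88 ± 0.82, adjusted p = 0.000548). No cDC1 library reached the lowest cDC2 library under the same treatment, and replicate 4 of cDC2 was far above the others with LPS and with both agents. Without cDC2 LPS replicate 4 the LPS value was 1.17 (adjusted p = 0.254), and without cDC2 LPS_PGPC replicate 4 the value with both agents was 3.59 and kept its call. Those 2 libraries also had the highest monocyte or macrophage marker sums of their groups, 3879 CPM against 1228 and 1415 with LPS and 2736 CPM against 1330 and 991 with both agents, and the part of these in the Hk3 values was not tested. The call was also lost with LPS without cDC1 replicate 2 (2.90) or replicate 3 (2.66), untreated without cDC1 replicate 1 (2.75), cDC1 replicate 2 (2.84) or cDC2 replicate 5 (2.67), and with PGPC without cDC2 replicate 5 (2.38).

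P4ha1, a collagen prolyl hydroxylase subunit and hypoxia target, was higher in cDC2 under all treatments but PGPC. It was at 71.9, 67.3 and 58.4 CPM in untreated cDC1 and 131, 210.5 and 165 CPM in untreated cDC2 (1.36 ± 0.33, adjusted p = 0.00851), and at 93.7, 69.7 and 65.6 CPM against 259.6, 281 and 355 CPM with LPS (1.964 ± 0.33, adjusted p = 0.000374). With both agents it was at 36.8, 66.6 and 58.8 CPM in cDC1 and 185, 125 and 174 CPM in cDC2 (1.57 ± 0.32, adjusted p = 0.00353), and with PGPC at 57.6 to 69.4 CPM against 112 and 89.5 CPM, which did not pass. The groups did not overlap under any treatment. The untreated call was lost without cDC2 replicate 5 (1.16, adjusted p = 0.0726) and, with an adjusted p of 0.0522, with no filter on low counts. Hif1a was called with LPS, at 67.9, 83.3 and 95.4 CPM in cDC1 and 271, 175 and 248 CPM in cDC2 (1.49 ± 0.40, adjusted p = 0.02), and lost its call without cDC1 LPS replicate 1 (1.37) or replicate 2 (1.59).

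Eno2 was at 0, 0 and 1.51 CPM in untreated cDC1 and 24.6, 28.4 and 18.7 CPM in untreated cDC2 (5.24 ± 1.12, adjusted p = 0.00354). With PGPC it had 3 counts in cDC1 and 26 in cDC2. The ratio of these pooled counts, scaled to library totals, was 159 (95% counting interval 48.6 to 819; adjusted p = 0.00385). The group means lay less far apart, at 0.0692 CPM per kilobase of exon in cDC1 and 1.89 in cDC2. That call was lost without cDC2 PGPC replicate 4 (5.33). With both agents, where Eno2 had risen in cDC1, it was at 6.09 to 16.0 CPM in cDC1 and 6.54 to 30.8 CPM in cDC2 and did not differ beyond the spread. Eno1, Pkm and Slc16a3, the lactate exporter of glycolytic cells, were called with PGPC. Eno1 was at 959, 916 and 777 CPM in cDC1 and 2649 and 1905 CPM in cDC2 (1.37 ± 0.40, adjusted p = 0.0281), Pkm at 1394, 1056 and 1363 CPM against 3798 and 5368 CPM (1.85 ± 0.52, adjusted p = 0.0223), and Slc16a3 at 26.3, 14.3 and 28.9 CPM against 58.6 and 96.4 CPM (1.72 ± 0.51, adjusted p = 0.0281). The cDC2 group has 2 libraries here, and with replicate 4 or replicate 5 left out none of Eno1 (1.10 and 1.58), Pkm (2.07 and 1.58) or Slc16a3 (2.03 and 1.32) kept its call. Eno1 also lost it without cDC1 replicate 1 (1.37) or replicate 3 (1.28), and Slc16a3 without cDC1 replicate 2 (1.61). Under the other treatments none of the 3 was called, but Pkm untreated (1.36, adjusted p = 0.0724), Eno1 with LPS (1.08, adjusted p = 0.0742) and Slc16a3 with LPS (1.35, adjusted p = 0.0763) were called with median-ratio scaling. The PGPC effect on these genes was not shown to differ between classes (adjusted p = 0.877 for Eno1, 0.913 for Pkm and 0.803 for Slc16a3).

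Genes lower in cDC2 were fewer. Gpi1 was at 669, 763 and 580.0 CPM in untreated cDC1 and 342, 360 and 198 CPM in untreated cDC2 (-1.15 ± 0.35, adjusted p = 0.0353), and with both agents at 473, 317 and 318 CPM against 154, 160.4 and 194 CPM (-1.12 ± 0.35, adjusted p = 0.0487). Pdk3 was at 53.0, 45.05 and 54.9 CPM untreated in cDC1 and 20.6, 16.0 and 18.7 CPM in cDC2 (-1.47 ± 0.46, adjusted p = 0.0398), and with both at 120, 81.0 and 63.6 CPM against 26.3, 26.9 and 23.9 CPM (-1.78 ± 0.43, adjusted p = 0.0121). With LPS the cDC2 libraries were lower for Slc2a3 (66.2, 86.2 and 32.1 CPM in cDC1 against 9.73, 4.85 and 0 CPM; -3.55 ± 0.72, adjusted p = 0.0021) and Pfkp (138, 161 and 82.4 CPM against 74.2, 25.9 and 21.5 CPM; -1.63 ± 0.45, adjusted p = 0.0232). The classes did not overlap for any of these genes and treatments. Slc2a3 kept its call whichever library was left out. Both untreated Pdk3 and Gpi1 with both agents lost theirs with each of the 6 libraries left out (-1.35 to -1.55, and -0.88 to -1.23), untreated Gpi1 with any but cDC1 replicate 3 (-0.93 to -1.30), Pdk3 with both agents without cDC1 replicate 1 (-1.46) or cDC2 replicate 4 (-1.79), and Pfkp without cDC1 LPS replicate 1 (-1.57) or replicate 2 (-1.35) or cDC2 LPS replicate 5 (-1.38) or replicate 6 (-1.26).

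**Figure D5:**
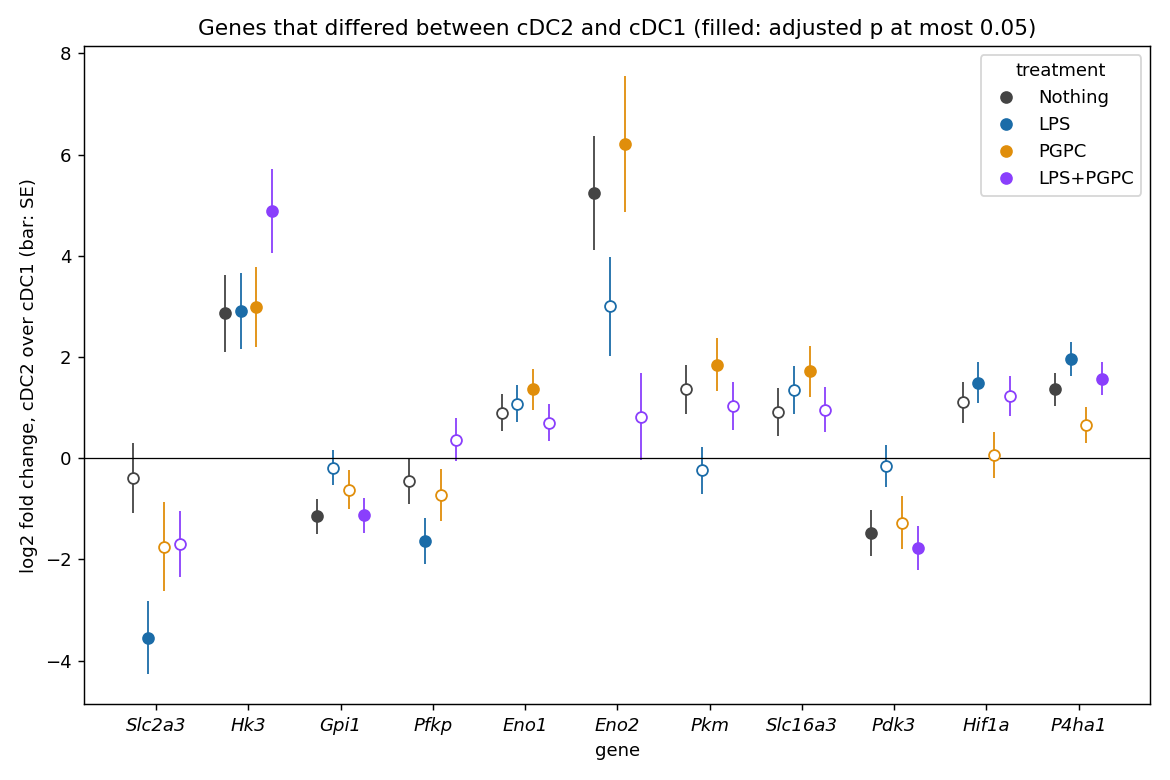
Log2 fold change of cDC2 over cDC1 with its standard error at each of the 4 treatments, for the 11 genes called at any of them; filled points passed the adjusted p threshold of 0.05. Hk3 is filled at all 4 treatments (2.86 to 4.88) and P4ha1 at 3.

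Over the 17 comparisons 19 of the 33 genes were called at least once, 13 never and Vegfa was not tested. The share of all genes called at least once was not counted, so the 19 cannot be set against a background. The 13 were Hk1, Hk2, Pfkl, Pfkm, Pfkfb4, Aldoa, Gapdh, Pgk1, Slc16a1, Pdk1, Egln1, Egln3 and Bnip3. Without cDC1 PGPC replicate 2, Egln3 passed for PGPC in cDC1 (-8.30, adjusted p = 0.007) and LPS plus PGPC against PGPC (6.46, adjusted p = 0.0053). It also passed between classes with PGPC (6.47) and for the LPS effect with against without PGPC in cDC1 (8.91). Its mean level with PGPC in cDC1 was only 0.53 ± 0.918 CPM per kilobase (SD). Bnip3 passed for LPS plus PGPC against PGPC in cDC1 with a replicate block (-1.335, adjusted p = 0.0428). Gapdh, often used as a reference gene, ranged from 38.9 CPM (LPS replicate 4 of cDC2) to 311 CPM (LPS replicate 5 of cDC2), so that its 2 extremes lay within 1 group, and its smallest adjusted p was 0.495. Hk1 had its smallest adjusted p between the classes with PGPC (2.04 ± 0.70, adjusted p = 0.0589), at 56.1, 32.9 and 78.7 CPM in cDC1 and 199 and 263 CPM in cDC2. Pdk1, in contrast to Pdk3, was at 39.7, 38.2 and 37.4 CPM in untreated cDC2 and at 32.3, 3.77 and 4.89 CPM with LPS, and passed only without LPS replicate 4 (-3.175, adjusted p = 0.0192). Vegfa had 31 counts in cDC2 with both agents and 1 in cDC1. The ratio of these pooled counts, scaled to library totals, was 58.7 (95% counting interval 9.79 to 2394).

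Genes of neighbouring metabolism outside the 33 were counted in the same way, beside the 17.9% of all genes called with LPS in cDC1 and 8.52% in cDC2. Of 21 tested genes of other glycolytic and pyruvate steps, 1 rose and 2 fell with LPS in cDC1: Eno3, the muscle enolase (2.73 ± 0.66, adjusted p = 0.00492), and the pyruvate dehydrogenase kinase genes Pdk2 (-3.01 ± 0.60, adjusted p = 0.000926) and Pdk4 (-5.80 ± 1.83, adjusted p = 0.0291). None of the 21 was called with LPS in cDC2. Of 24 tested further hypoxia targets, 2 rose and 2 fell in cDC1. Bhlhe40, a transcriptional repressor, rose in all 4 LPS comparisons (2.1996 ± 0.32 and 3.46 ± 0.33 in cDC1, 1.44 ± 0.32 and 1.71 ± 0.36 in cDC2, without and with PGPC), while Bnip3l, a relative of Bnip3, fell with LPS in cDC1 (-1.94 ± 0.39, adjusted p = 0.00102). Of 9 tested genes of the HIF machinery, Cul2 rose (1.47 ± 0.41) and Vhl fell (-1.24 ± 0.38) with LPS in cDC1, and none was called in cDC2. Of 30 tested genes of the citrate cycle and pyruvate entry, 1 rose and 3 fell with LPS in cDC1, Acly rising (1.27 ± 0.45) and Fh1 falling (-1.47 ± 0.34), and 2 fell in cDC2, Idh1 (-2.07 ± 0.42) and Idh2 (-1.87 ± 0.43). Of 8 pentose phosphate genes 1 fell in each class, Pgls in cDC1 (-1.41 ± 0.42) and Taldo1 in cDC2 (-1.46 ± 0.34).

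Of 16 tested regulators of glycolysis, Ikbke and Rptor rose with LPS in cDC1 (5.83 ± 1.00 and 1.04 ± 0.33) and Tbk1 in cDC2 (1.55 ± 0.45). Ikbke and Tbk1 encode kinases that act in Toll-like receptor signalling, and Rptor a subunit of the growth kinase complex built on mTOR. Myc, a transcription factor that drives glycolytic genes, was lower with LPS plus PGPC than with LPS alone in cDC1 (-2.19 ± 0.51, adjusted p = 0.0232), and its LPS effect in cDC1 differed with PGPC from that without (-3.28 ± 0.72, adjusted p = 0.021). Slc16a6, a monocarboxylate transporter relative, did the same (-3.69 ± 0.81, adjusted p = 0.0159, and -4.63 ± 1.09, adjusted p = 0.0343). The LPS effect was lower in cDC2 than in cDC1 for Rptor (-1.79 ± 0.46, adjusted p = 0.0493).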

How the data were processed

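RNA of 36 libraries was amplified with Smart-Seq2 from the RNA of about 2000 cells each, made into Nextera XT libraries and sequenced in read pairs, per the labels' protocols. The authors deposited an expected count for each gene and library, estimated with RSEM (version not given in the sources used here) on GRCm38 after bcl2fastq 2.2, per the submitters' processing notes. Here 23 libraries in 8 groups were used, and 12 alum libraries and 1 library of 3799 counts were left out. These were rounded, filtered with filterByExpr (minimum count 10, minimum total 15; 12463 genes left), scaled by TMM and fitted once with edgeR 4.0.16 (R 4.3.3, quasi-likelihood, robust) with 1 mean per group and 17 contrasts. A gene was called at a Benjamini-Hochberg adjusted p of at most 0.05 over all genes tested. Every adjusted p is from this two-sided test unless DESeq2 1.42.0 is named. SE is the log2 fold change over the root of F. Counting intervals are exact at 95% and cover counting error only. Depth ran from 243861 to 16600980 counts, so that 3 counts stand for 0.119 to 11.2 CPM, and the biological coefficient of variation was 0.545. Gene positions and exon lengths came from GENCODE (GRCm38) and promoters from RefSeq (GRCm38.p6). The fit was also run on counts simulated from its own estimates, with changes added to cDC1 with LPS alone. That run cannot speak to differences between groups such as the ribosomal RNA share. Alternatives were median-ratio scaling, no filter, DESeq2, all 36 libraries, a replicate block and leaving out each library, and, added after seeing the data, totals without ribosomal RNA rows. Replicate numbers were taken to pair libraries where all same-numbered pairs correlated above 0.1 after removal of group means, which held for LPS and LPS_PGPC in cDC2 alone (0.59, 0.132 and 0.273), a hint from the data and not from the design. The genes and lists were chosen with earlier results of these data known. Values in every library are given for genes called in the comparison described and at least 1 gene of each role. From each further list up to 4 genes of the smallest adjusted p are named.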

Additional observations from a re-analysis of the deposited data

How the results depend on the processing

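Of the 43 calls of a gene among the 32, all 43 were kept with DESeq2, 42 with median-ratio scaling, 34 with no filter, 39 with ribosomal RNA rows left out of the totals and 9 with all 36 libraries in the fit. No call changed direction. Leaving out 1 library at a time kept 14 of the 43 in every fit, and 29 were lost in at least 1. Counts of called genes moved by more than 1.5 times as follows. With all 36 libraries LPS changed 2 genes in cDC1 and 1 in cDC2, LPS plus PGPC against PGPC 2 in cDC1 and 0 in cDC2, and 1 gene differed between the classes under each of the 4 treatments. With DESeq2 the count was 8 between untreated classes, 8 with LPS, 7 with both agents, 2 for PGPC in cDC1, 2 for PGPC added to LPS in cDC1 and 3 in cDC2, 1 for the LPS effect between classes and 1 for the LPS effect with against without PGPC in cDC1. With no filter the count was 3 between untreated classes, 2 for PGPC in cDC1, 2 for PGPC added to LPS in cDC1, 1 for the LPS effect between classes and 3 for the LPS effect with against without PGPC in cDC1. With median-ratio scaling it was 8 between classes with LPS and 1 for PGPC in cDC1. Over all genes DESeq2 called 1770, 1420 and 1306 between classes untreated, with LPS and with both agents, where edgeR called 1265, 972 and 890. The cause of these moved counts was not tested.

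Leaving out each library in turn gave 3 to 7 called genes for LPS in cDC1, 4 to 9 for LPS plus PGPC against PGPC in cDC1, 2 to 4 for LPS in cDC2 and 0 to 3 for LPS plus PGPC against PGPC in cDC2. Between classes it gave 1 to 5 untreated, 2 to 6 with LPS, 1 to 5 with PGPC and 2 to 4 with both. It gave 0 to 2 for the LPS effect with against without PGPC in cDC1, 0 to 1 for PGPC in cDC1, for PGPC added to LPS in cDC2 and its difference between classes, and for the LPS effect between classes, and 0 in the remaining comparisons. Over all genes tested, leaving out a library moved the count of 827 for LPS plus PGPC against PGPC in cDC2 to 166 to 694. It gave 119 to 317 for PGPC in cDC1 (lowest without untreated replicate 1), 60 to 273 for PGPC added to LPS in cDC1 (without LPS replicate 1), 657 to 985 for LPS in cDC2 (without untreated replicate 4) and 19 to 83 for PGPC added to LPS in cDC2 (lowest without LPS replicate 6, highest without LPS replicate 4). Between classes it gave 545 to 1195 untreated (lowest without cDC2 replicate 5), 497 to 1395 with LPS (without cDC1 replicate 1), 448 to 1522 with PGPC (without cDC2 replicate 5) and 401 to 844 with both (without cDC2 replicate 4). For differences between effects it gave 33 to 349 for LPS by PGPC in cDC1, 1 to 4 in cDC2, 75 to 442 for LPS between classes, 6 to 78 for PGPC and 1 to 46 for PGPC added to LPS. With no filter and with DESeq2 the counts were 632 and 637 in place of 259 for PGPC in cDC1, 33 and 19 in place of 2 in cDC2, 585 and 716 in place of 241 for PGPC added to LPS in cDC1, 156 and 190 in place of 48 in cDC2, 592 and 506 in place of 159 for LPS by PGPC in cDC1, 28 and 30 in place of 4 in cDC2, 425 and 428 in place of 166 for LPS between classes, 194 and 124 in place of 21 for PGPC, and 97 and 53 in place of 1 for PGPC added to LPS. DESeq2 also gave 1245 in place of 827 for LPS plus PGPC against PGPC in cDC2. With all 36 libraries counts were lower in all 17 comparisons, among them 596 in place of 2235 for LPS in cDC1, 502 in place of 2043 with PGPC in both arms, 232 in place of 1062 for LPS in cDC2, 102 in place of 827 with PGPC in both arms, 43 in place of 259 for PGPC in cDC1, 8 in place of 241 and 2 in place of 48 for PGPC added to LPS, 118, 300, 285 and 143 in place of 1265, 972, 1502 and 890 between classes, and 0 to 18 for the remaining ones. Median-ratio scaling moved the share of calls that were higher for PGPC added to LPS in cDC2 from 72.9% to 61.5%.

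Same-numbered libraries correlated at -0.0526 to 0.217 in cDC1 and -0.244 to 0.59 in cDC2 after removal of group means, and the numbers met the rule for pairing for PGPC added to LPS in cDC2 alone, where a replicate block left 0 called genes among the 32 and 47 in place of 48 over all genes. In the other comparisons the block gave 9 called genes for LPS in cDC1, 10 for LPS plus PGPC against PGPC in cDC1, 3 for LPS in cDC2 and 2 for LPS plus PGPC against PGPC in cDC2, and Ldhb with LPS in cDC2 had an adjusted p of 0.0645. Over all genes it gave 1 in place of 4 for LPS by PGPC and 1 in place of 2 for PGPC in cDC2. Depth limits the low genes: in untreated cDC2 replicate 6, 3 counts stand for 11.2 CPM, which is above the level of Slc2a3, Ldhb, Egln1 and Egln3 there.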
